A study of Mus musculus with 9 samples.

Results

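Transfer RNAs for glycine with the anticodons GCC and CCC (tRNA-Gly-GCC and tRNA-Gly-CCC) were followed through small RNA libraries of mouse blood serum. The members are all reads whose every alignment lies on a mature Gly-GCC or Gly-CCC reference. They made up 5699 of 41240 distinct sequences and 114899 of 555585 tRNA reads. A further 239 reads shared with another tRNA family and 899 on Gly precursors were left out. The labels name 3 groups of 3 mouse libraries, all marked week 20: normal diet, high fat diet, and high fat diet plus salvianolic acid B (SalB), a phenolic acid of Salvia miltiorrhiza root. The titles of the normal diet libraries carry the strain name C57. Neither strain nor genotype is given for the others, nor the dose and route of SalB. A difference from normal diet can therefore include a difference of strain. Labels give the same cell type entry, atherosclerosis, for all 3 groups, although serum is cell-free fluid, and the files hold tRNA reads only, so markers of blood cells could not be checked. Whether replicates come from different animals is not stated, so each p-value reflects the spread among these libraries alone, which could be technical.

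A tRNA folds into a cloverleaf whose anticodon loop can be cut by ribonucleases such as angiogenin, which leaves a long 5′ fragment (5′ tiRNA) and a long 3′ fragment. The 5′ tiRNAs of tRNA-Gly and a few other tRNAs are among the commonest tRNA fragments known in serum and outlast other fragments there. Cuts in the T loop give short 3′ fragments that end in the CCA tail. One adenosine of the T loop often carries a methyl group (1-methyladenosine, m1A), which is known to block or misdirect the reverse transcriptase, so that a cDNA copy may show another base there.

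The main references are shown, rebuilt from the aligned reads, because the fragments below are cut from them. All are written 5′ to 3′ as DNA, and capitals mark the anticodon and the T-loop base, at position 56 of 74 with position 1 at the 5′ end.
Gly-GCC-2-1: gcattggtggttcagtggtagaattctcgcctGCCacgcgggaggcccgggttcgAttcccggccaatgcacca
Gly-GCC-1-1: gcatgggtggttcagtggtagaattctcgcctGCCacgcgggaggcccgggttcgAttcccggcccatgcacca
Gly-CCC-2-1: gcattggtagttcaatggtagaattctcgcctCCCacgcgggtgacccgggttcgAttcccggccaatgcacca
Gly-CCC-1-1: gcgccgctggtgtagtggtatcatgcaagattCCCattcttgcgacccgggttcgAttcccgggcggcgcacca
Relative to Gly-GCC-2-1, Gly-GCC-1-1 differs by T5G and A66C, Gly-GCC-3-1 by C54T and Gly-GCC-4-1 by A56G. Gly-CCC-2-1 differs by G9A, G15A, G33C, A43T and G45A, and Gly-CCC-1-1 at 24 of its 74 bases. Gly-CCC-1-1 and Gly-GCC-1-1 can therefore be told apart from the rest in most fragments, whereas a 3′ fragment of Gly-GCC-2-1 also matches Gly-CCC-2-1, 3-1 and 4-1. Reads that align to Gly-CCC-1-1 alone numbered 9594 and those to Gly-GCC-1-1 alone 8777. The largest set, 37646 reads, fits Gly-GCC-2-1, 3-1 and 4-1 alike.

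With normal diet the replicates 1, 2 and 3 held 8736, 8922 and 25799 Gly reads. The counts were 14852, 6874 and 11992 with high fat diet and 12801, 15860 and 9063 with SalB. They were 20.3%, 28.7% and 27.2% of tRNA reads with normal diet, 26.8%, 24.4% and 27.0% with high fat diet, and 20.6%, 10.1% and 22.6% with SalB. The SalB libraries lay below all high fat diet libraries, yet over the 3 groups the share did not pass the test (exact permutation over 280 partitions, adjusted over 9 measures, p = 0.137). SalB replicate 2 stood apart: 42.0% of its reads came from the precursor of Leu-CAG-3-1, against 2.55% and 0.0573% in the other SalB libraries and at most 0.107% elsewhere. Without those reads its Gly share was 17.5%, still the lowest of all 9 libraries. Mitochondrial tRNAs took 3.05% to 4.50% of reads in the normal and high fat diet libraries and 18.2%, 8.83% and 18.5% with SalB. Of nuclear mature tRNA reads alone, Gly took 32.5%, 24.1% and 32.0% with SalB against 29.4%, 27.3% and 29.8% with high fat diet, and these groups overlapped. The summed Gly level was the highest of 101 tRNA families in 8 of 9 libraries and second in SalB replicate 2. It was 0.40 lower on the log2 scale with SalB than with high fat diet (SE 0.22, limma-voom adjusted p = 0.184), where 21.8% of families were called. The log2 differences were 0.03 for high fat diet against normal diet (0% of families called) and -0.38 for SalB against normal diet (adjusted p = 0.206, 23.8% of families called). In serum, a bulk sample, fewer cells that release a fragment and less RNA per cell cannot be told apart.

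Gly fragments fall into 5′ fragments (from base 1), 3′ fragments (ending in the CCA tail) and internal ones. With normal diet 27.3%, 36.4% and 48.9% of Gly reads started at base 1, with high fat diet 30.7%, 18.1% and 35.1%, and with SalB 36.5%, 48.8% and 30.1%. The 3 groups overlapped (exact permutation, adjusted p = 0.407). Reads reaching the 3′ end made up 38.04%, 42.6% and 31.9% with normal diet, 35.6%, 49.5% and 37.7% with high fat diet, and 23.4%, 14.8% and 20.6% with SalB. Every SalB library lay below every other library, and the 3 groups differed (exact permutation, adjusted p = 0.0413). Between 2 groups the smallest exact p that 3 against 3 libraries allow is 0.1, and that was the p for SalB against high fat diet. Internal reads took 34.6%, 20.9% and 19.2% with normal diet, 33.8%, 32.4% and 27.2% with high fat diet and 40.04%, 36.4% and 49.3% with SalB.

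**Figure D1:**
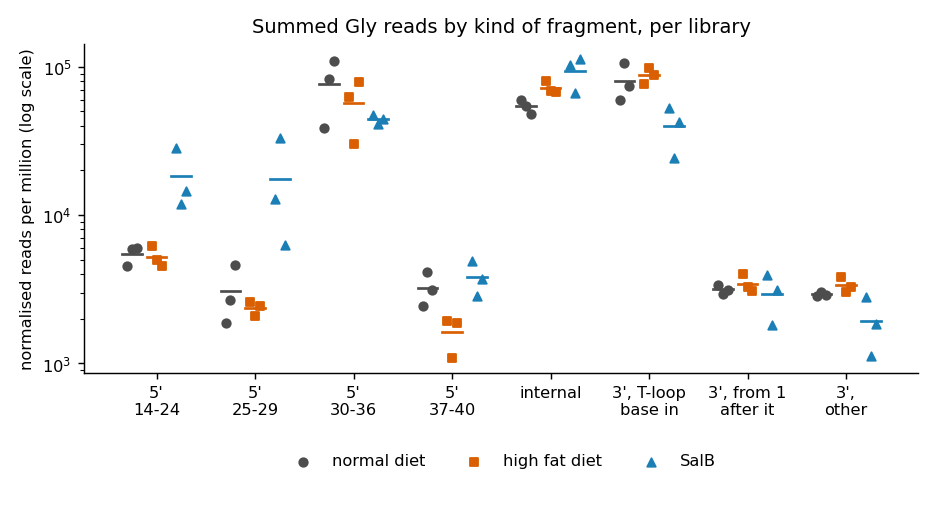
Summed Gly reads by kind of fragment, in normalised CPM on a log axis; each symbol is 1 library and each bar a group mean (3 libraries a group). With SalB the 5′ fragments of 14 to 24 and of 25 to 29 bases lie above all other libraries and the 3′ fragments that hold the T-loop base lie below them, whereas the 5′ fragments of 30 to 36 bases overlap.

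Sums of each kind were tested over 226 such sums of all tRNA families in 1 limma-voom fit. Of the 8 Gly sums, 3 rose and 1 fell with SalB against high fat diet, where 27% of all sums were called. The 5′ fragments of 14 to 24 bases had normalised levels of 6185, 4947 and 4519 CPM (counts scaled to a common library size) with high fat diet and 28298, 11920 and 14576 with SalB. Normal diet gave 4528, 5949 and 6041, and the SalB libraries stood above all others. It was 1.70 higher on the log2 scale with SalB than with high fat diet (SE 0.34, limma-voom adjusted p = 0.0046). With total counts as the scaling it was 1.16 and was no longer called (limma-voom adjusted p = 0.0513).

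Fragments of 25 to 29 bases had levels of 2580, 2102 and 2446 with high fat diet and 12885, 33119 and 6290 with SalB. SalB replicate 2, the library with the Leu-CAG-3-1 precursor, was the highest, and every SalB library exceeded every high fat diet and normal diet library. The log2 fold change was 2.60 (SE 0.56, limma-voom adjusted p = 0.00686) and 1.95 without SalB replicate 2 (limma-voom adjusted p = 0.0015). The long 5′ fragments of 37 to 40 bases, which pass the anticodon, rose by 1.19 (limma-voom adjusted p = 0.0242). That call was lost with total counts, with no filter and without high fat diet replicate 2 or 3 or SalB replicate 1, with adjusted p up to 0.237. The 5′ tiRNAs of 30 to 36 bases, which end in the anticodon loop, were at 62279, 30329 and 78363 with high fat diet and 47098, 41315 and 44437 with SalB, and the groups overlapped (log2 difference -0.29, limma-voom adjusted p = 0.631).

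The 3′ fragments that hold the T-loop base fell. They were at 76796, 98808 and 87360 with high fat diet, 59754, 105532 and 74250 with normal diet, and 52992, 24174 and 42113 with SalB. Relative to high fat diet the SalB level changed by -1.23 on the log2 scale (SE 0.32, limma-voom adjusted p = 0.0163), and the call was lost without high fat diet replicate 2 (adjusted p = 0.0554). Internal fragments showed a log2 difference of 0.34 that was not called (limma-voom adjusted p = 0.287) and turned to -0.21 with total counts. Without SalB replicate 2 it was 0.60 and called (limma-voom adjusted p = 0.0253).

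The length of 5′ fragments shows the same in shares that need no scaling between libraries. Of 5′ Gly reads, 81.4%, 86.6% and 88.8% had 30 to 36 bases with normal diet and 85.4%, 78.9% and 89.9% with high fat diet. With SalB the shares were 50.6%, 46.3% and 64.4%, all below the other 6 libraries (exact permutation over 3 groups, adjusted p = 0.0413). Reads of 14 to 24 bases made up 9.55%, 6.25% and 4.91% with normal diet, 8.48%, 12.9% and 5.18% with high fat diet, and 30.4%, 13.4% and 21.1% with SalB. SalB replicate 2 came close to high fat diet replicate 2, with no overlap between the groups (adjusted p = 0.0413). Mean length was 30.8, 30.4 and 31.4 bases with high fat diet and 27.5, 28.2 and 28.8 with SalB.

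**Figure D2:**
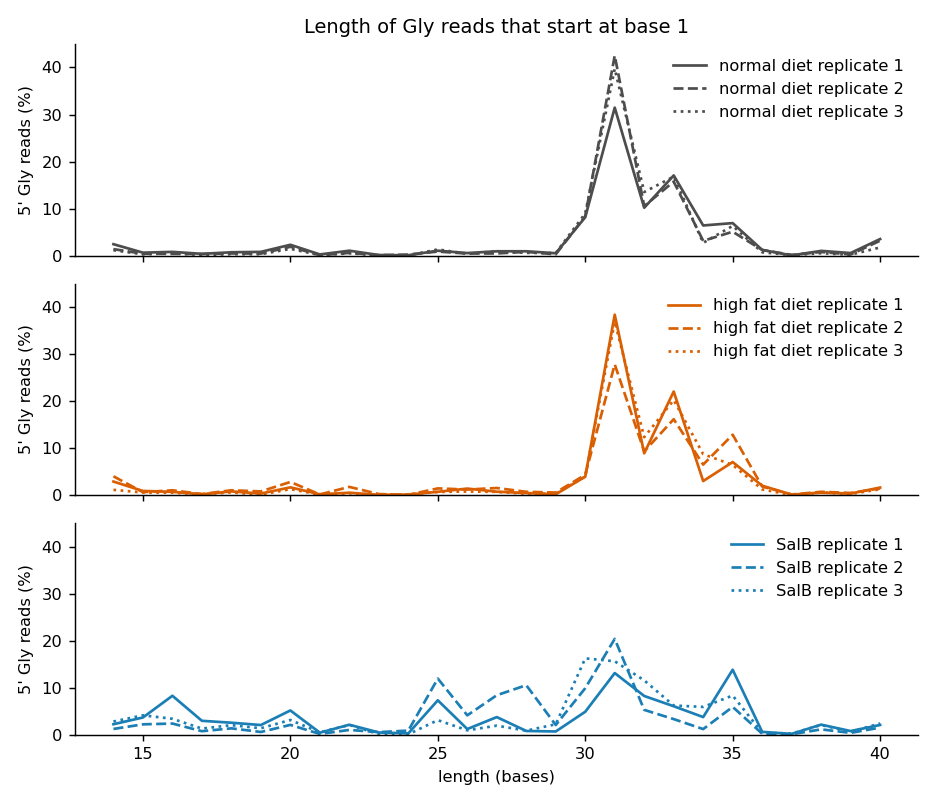
Share of 5′ Gly reads (vertical axis, percent) by length in bases (horizontal axis), 1 line per library and 1 panel per group. Peaks at 31 and 33 bases stand out in the 6 normal and high fat diet libraries, and the SalB libraries have lower peaks there and more reads at 15 to 18, 25 and 27 bases.

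The commonest length in the normal and high fat diet libraries was 31 bases, at 31.5%, 42.5% and 39.7% with normal diet and 38.4%, 27.8% and 36.9% with high fat diet. With SalB it took 13.1%, 20.4% and 15.6%. Reads of 33 bases, whose last base is the first of the anticodon, took 22.05%, 16.2% and 20.2% with high fat diet and 6.07%, 3.33% and 6.22% with SalB. The SalB libraries differed from each other in their shorter reads. In SalB replicate 1 reads of 16 bases took 8.29% and in replicate 2 only 2.39%. Reads of 25 to 29 bases took 37.1% in SalB replicate 2, 13.8% in replicate 1 and 9.11% in replicate 3, against 2.81% to 5.47% in the other 6 libraries. Reads of 35 bases, which end at the last anticodon base, did not follow this: 7.05%, 12.9% and 6.44% with high fat diet and 13.8%, 5.93% and 8.35% with SalB.

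The odds of a 5′ read having 25 to 29 rather than 30 to 36 bases were also tested in each of 8 families with enough reads, by limma on log2 odds, a test chosen after the data were seen. For Gly the log2 odds rose by 2.81 with SalB against high fat diet (SE 0.65, limma adjusted p = 0.00601), in a comparison where 37.5% of the families were called. The call held with each library left out in turn, with differences from 2.13 to 3.38. Lys-TTT and Asp-GTC rose as well, by 2.98 (limma adjusted p = 0.00601) and 1.30 (limma adjusted p = 0.0341). Lys-TTT started near the floor, at 0%, 0% and 4.35% with high fat diet. Of the 8 families 0 had a negative difference. Against normal diet the Gly difference was 2.95 (limma adjusted p = 0.00432, 25% of families called), and high fat diet against normal diet gave 0.14 (0% called). For 14 to 24 against 30 to 36 bases, tested in 11 families, the Gly difference was 1.97 with SalB against high fat diet (limma adjusted p = 0.0763), where 0% of families were called and 2 had an unadjusted p under 0.05. Against normal diet it was 2.31 (limma adjusted p = 0.0303, 9.09% called), and that call was kept when 4 of the 9 libraries were left out in turn. Gly-TCC, the third glycine tRNA, had a difference of -0.09 in the same odds with SalB against high fat diet (limma adjusted p = 0.939). The difference between the 2 glycine families was not tested.

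The shift was seen in the isodecoders (tRNAs of 1 anticodon that differ elsewhere) that supply most 5′ reads. Within Gly-GCC-2-1 and its alike references, 92.8%, 90.6% and 94.7% of 5′ reads had 30 to 36 bases with high fat diet and 51.5%, 48.9% and 70.0% with SalB. Within Gly-GCC-1-1 the shares were 69.2%, 61.6% and 74.7% with high fat diet and 54.6%, 35.6% and 52.3% with SalB. Within Gly-CCC-1-1 they were lower in every group, at 33.9%, 36.2% and 47.0% with high fat diet, 38.4%, 28.3% and 21.3% with normal diet, and 30.9%, 23.5% and 32.0% with SalB. Reads of 14 to 24 bases took 46.4% to 63.2% of the 5′ reads of Gly-CCC-1-1 over the 9 libraries, and there the groups overlapped.

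Single 5′ fragments show which ends changed. They are printed 5′ to 3′ with the last base, the end of the fragment, in capitals. All start at base 1 of Gly-GCC-2-1, 3-1 and 4-1, and those up to 14 bases also match Gly-CCC-3-1 and 4-1.
14 bases: gcattggtggttcA
15 bases: gcattggtggttcaG
16 bases: gcattggtggttcagT
25 bases: gcattggtggttcagtggtagaatT
27 bases: gcattggtggttcagtggtagaattcT
30 bases: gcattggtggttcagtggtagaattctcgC
31 bases: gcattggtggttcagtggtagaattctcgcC
33 bases: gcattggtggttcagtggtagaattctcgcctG
Of 5699 members, 154 were abundant enough to be tested among 733 fragments of all families. The filter level, 10 reads at the median depth, was reached only in SalB libraries by 6 of the 154. Those 6 had to be higher with SalB, so their rises support nothing. Some others reached the level in too few normal and high fat diet libraries and passed only with SalB libraries counted. Their rises were favoured by the filter as well. In turn, some fragments that fell reached the level in no SalB library, so their falls were favoured by the filter. With SalB against high fat diet 33 rose, these 6 among them, and 21 fell, and 34.2% of all fragments were called (129 rose, 122 fell). The median log2 fold change was 0.03 over the Gly fragments and -0.15 over all. Total counts as the scaling, which moved the median of all fragments to -0.999, gave 12 Gly fragments higher and 47 lower. Without SalB replicate 2, the library with the Leu-CAG-3-1 precursor, 37 Gly fragments were called. The shares called over all fragments in these alternatives are not given, so their counts cannot be set against the 34.2%. Of the 10 tested 5′ fragments of 14 to 24 bases, 4 reached the level only with SalB, and of the other 6, 3 rose and 0 fell. Among those 3, gcattggtggttcagtggtagA passed the filter only with the SalB libraries counted. Of 9 with 25 to 29 bases, 2 reached it only with SalB, and of the other 7, 4 rose and 0 fell. Among those 4, gcattggtggttcagtggtagaatT and gcattggtggttcagtggtagaattctcG passed the filter only with the SalB libraries counted. Of 36 with 30 to 36 bases 4 rose and 5 fell, and of 4 longer ones 2 rose.

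The 16-base fragment had normalised levels of 56.3, 42.6 and 111 CPM with normal diet, 67.6, 43.4 and 86.6 with high fat diet and 5746, 2644 and 1725 with SalB. It ends in the D loop and was near the limit of counting in the first 2 groups and abundant in all SalB libraries. Since it reached the filter level only with SalB, its values are a description. The 15-base fragment went from 180, 130 and 173 with high fat diet to 2748, 2290 and 2512 with SalB, the tightest SalB values of the 14-, 15- and 16-base fragments, and likewise reached the filter level only with SalB. The 14-base fragment was represented by 2 reads over the high fat diet libraries and by 101 over the SalB libraries. It too reached the filter level only with SalB.

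The 25-base fragment, which reached the filter level in 2 normal diet and 3 SalB libraries, stood at 180, 217 and 202 with high fat diet, 225, 554 and 1168 with normal diet and 5441, 15793 and 1687 with SalB. It was highest in SalB replicate 2 and above all other libraries in every SalB library. It passed the filter only with the SalB libraries counted, so its values are a description. The 27-base fragment went from 203, 260 and 289 to 2276, 8640 and 525 (log2 change 3.14, limma-voom adjusted p = 0.026). Its call was lost on leaving out any 1 of the high fat diet libraries or SalB replicate 1, with adjusted p up to 0.115. The same length of Gly-GCC-1-1, gcatgggtggttcagtggtagaattcT, went from 203, 174 and 86.6 to 722, 3565 and 525, and reached the filter level only with SalB, so it is a description.

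The 31-base fragment is the third most abundant Gly fragment and a classical 5′ tiRNA. Its levels were 13673, 4511 and 15965 with high fat diet, 8246, 26142 and 33733 with normal diet and 5968, 23466 and 6262 with SalB, overlapping throughout (log2 difference -0.07, limma-voom adjusted p = 0.94). The 33-base tiRNA had 10745, 3557 and 13367 with high fat diet and 3054, 2786 and 2362 with SalB, with high fat diet replicate 2 the nearest. It fell by 1.59 on the log2 scale (limma-voom adjusted p = 0.0347), a call lost on leaving out high fat diet replicate 1 or 3 or any 1 of the SalB libraries (adjusted p up to 0.13). Against normal diet it fell by 1.95 (limma-voom adjusted p = 0.0117). The 30-base tiRNA was low with high fat diet, at 1577, 824 and 2136, and spanned 1888, 11355 and 7237 with SalB, an overlapping range. It was called higher (log2 change 1.90, limma-voom adjusted p = 0.0459), a call lost in 8 of 17 alternatives, with adjusted p up to 0.148.

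**Figure D3:**
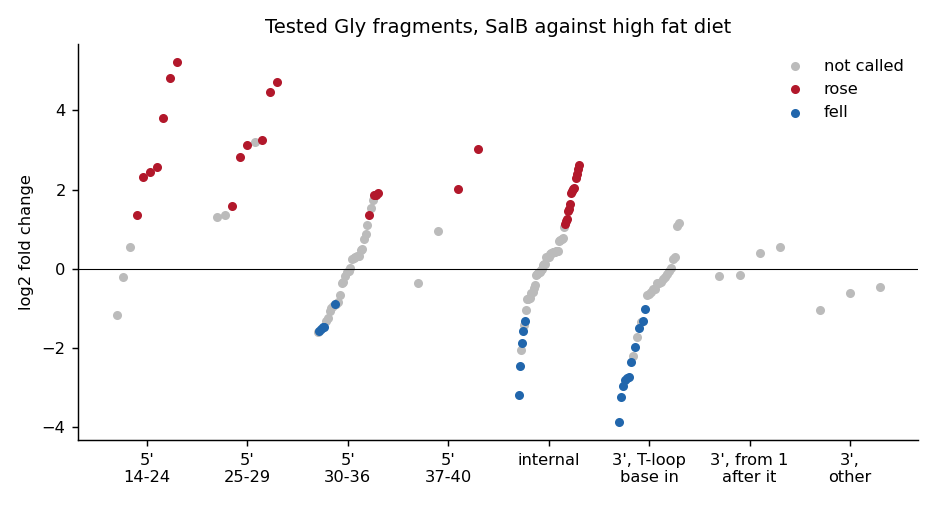
Log2 fold change, SalB relative to high fat diet (vertical axis), for the 154 tested Gly fragments, grouped by kind and ordered by size within a kind. Red points rose and blue points fell in the limma-voom test, and grey points were not called. Called 5′ fragments under 30 bases all lie above 0 and called 3′ fragments all lie below. Of those 5′ fragments, 6 reached the filter level only with SalB, and others passed the filter only with SalB libraries counted. Some of the called 3′ fragments reached it in no SalB library.

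The 3′ fragments are shown with the base at position 56 in capitals, because falls were more frequent among those substituted there. Each is written 5′ to 3′ and spans positions 53 to 74.
Gly-GCC-2-1 type, base as in the reference: tcgAttcccggccaatgcacca
Gly-GCC-2-1 type, A56T: tcgTttcccggccaatgcacca
Gly-GCC-1-1, A56T: tcgTttcccggcccatgcacca
Gly-CCC-1-1, A56T: tcgTttcccgggcggcgcacca
The fragment with the reference base is the most abundant of all Gly fragments. Its levels were 30634, 44680 and 42180 with high fat diet, 21473, 33392 and 37960 with normal diet and 31174, 21223 and 22573 with SalB, and the groups overlapped (log2 difference with SalB against high fat diet -0.65, limma-voom adjusted p = 0.105). The A56T form had 21782, 30061 and 23096 with high fat diet, 16323, 42348 and 19050 with normal diet and 3747, 2620 and 4425 with SalB. It exceeded the reference form in normal diet replicate 2 and was far below it in all SalB libraries. It changed by -2.81 on the log2 scale with SalB relative to high fat diet (SE 0.39, limma-voom adjusted p = 0.0005).

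The A56T form of Gly-CCC-1-1 went from 9416, 13274 and 7391 with high fat diet to 1693, 1204 and 3337 with SalB (log2 change -2.35, limma-voom adjusted p = 0.00211). That of Gly-GCC-1-1 went from 2230, 3644 and 2367 to 361, 236 and 787 (log2 change -2.76, limma-voom adjusted p = 0.00195). In both the SalB libraries lay below every other library. Of the 7 tested Gly fragments with a substituted base 56, 6 fell and 0 rose with SalB against high fat diet, and the log2 differences of all 7 ran from -3.89 to -1.73. Among the 7, tcgTttcccgggcggcgcacc, tcgTttcccggcccatgcacc and the long fragment from base 36 reached the filter level in 0 SalB libraries. Their low SalB values were favoured by the filter. Of the 26 tested that hold an unsubstituted base 56, 5 fell and 0 rose, with a median of -0.39. Among those 5 was the reference form that ends 1 base short of the 3′ end, tcgAttcccggccaatgcacc. Another of the 5, tcgAttcccggccaatgcacta, reached the filter level in 0 SalB libraries. One that fell carries T53G at its first base, gcgAttcccggccaatgcacca, from 1059, 1475 and 1790 with high fat diet to 167, 70.8 and 712 with SalB (log2 change -2.96, limma-voom adjusted p = 0.00994). A long A56T fragment of Gly-CCC-1-1 from base 36, the base after the anticodon, had 38 reads over the high fat diet libraries and 2 over the SalB libraries, a scaled ratio of 0.0511 (95% exact interval 0.00598 to 0.198, for counting error only). Because of the filter, that ratio is a description.

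The share of mismatched reads at base 56, among Gly reads that cover it, gives the same pattern within each library. It was 43.2%, 54.3% and 33.8% with normal diet, 37.5%, 38.04% and 30.4% with high fat diet and 8.75%, 9.61% and 16.7% with SalB. The Wilson 95% interval of SalB replicate 3, the highest of its group with 288 of 1727 covering reads, was 14.99% to 18.5% and covers counting error only. The SalB libraries lay below all others (exact permutation over 3 groups, adjusted p = 0.0413). Nearly all mismatches were to T: 37.1%, 37.9% and 29.95% of covering reads had T with high fat diet and 8.71%, 9.38% and 16.04% with SalB, while C stayed at most at 0.521%. A G at base 56 matches Gly-GCC-4-1 exactly, so for that base a mismatch cannot be told apart from that tRNA.

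**Figure D4:**
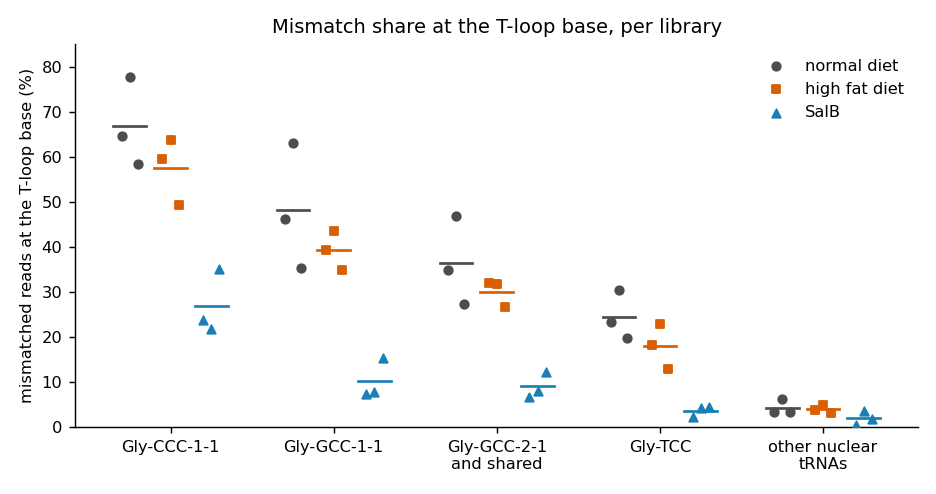
Share of reads with a mismatch at the T-loop base (percent), 1 symbol per library and a bar at each group mean (3 libraries a group). In the 3 Gly-GCC and Gly-CCC sets and in Gly-TCC every SalB library lies below every other library, whereas the other nuclear tRNAs, summed, stay under 7% and overlap. Among single families not drawn, Tyr-GTA, Thr-AGT, Leu-CAG and Ser-GCT also had every SalB library below every high fat diet library.

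The isodecoders differed in level but not in direction. Gly-CCC-1-1 had the highest share, 59.6%, 63.8% and 49.3% with high fat diet and 23.9%, 21.9% and 35.1% with SalB. Gly-GCC-1-1 had 39.4%, 43.5% and 34.9% against 7.36%, 7.80% and 15.4%, and the Gly-GCC-2-1 type 32.0%, 31.7% and 26.7% against 6.85%, 7.998% and 12.4%. In limma on log2 odds over 23 family rows, chosen after the data were seen, 17.4% of rows were called with SalB against high fat diet, all lower. Of the 23 rows, 19 had a negative difference. The groups did not overlap in 8 rows that were lower with SalB, other families among them, and in 1 that was higher. Gly-GCC-1-1 fell by 2.56 (SE 0.69, limma adjusted p = 0.0137) and the Gly-GCC-2-1 type by 2.15 (SE 0.66, limma adjusted p = 0.0275). Gly-CCC-1-1 had a difference of -1.91 that was not called (SE 0.68, limma adjusted p = 0.0544). Calls for the Gly-GCC-2-1 type were kept with 3 of the 9 libraries left out in turn and those for Gly-GCC-1-1 with 8, with adjusted p up to 0.0969 in both. Against normal diet, where 26.1% of rows were called, the 3 Gly rows fell by 2.51 to 3.09 and stayed called without any 1 library. High fat diet against normal diet gave -0.39 to -0.60 (0% called, 0 at an unadjusted p under 0.05).

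Gly-TCC, whose 3′ end is read the same way, fell by 2.49 (limma adjusted p = 0.0137), from 18.3%, 22.8% and 13.0% to 2.23%, 4.21% and 4.58%. Ser-GCT, the remaining called row, went from 1.12%, 1.29% and 0.935% to 0% in all 3 SalB libraries. Other nuclear tRNAs summed had 3.802%, 4.87% and 3.30% with high fat diet and 0.607%, 3.61% and 1.94% with SalB. Group means over the 20 rows without members ran from 0.109% to 18.4% with high fat diet, the highest being Tyr-GTA. In amount, of 28 other nuclear families with tested 3′ fragments that hold this base, 1 rose and 1 fell with SalB against high fat diet.

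**Figure D5:**
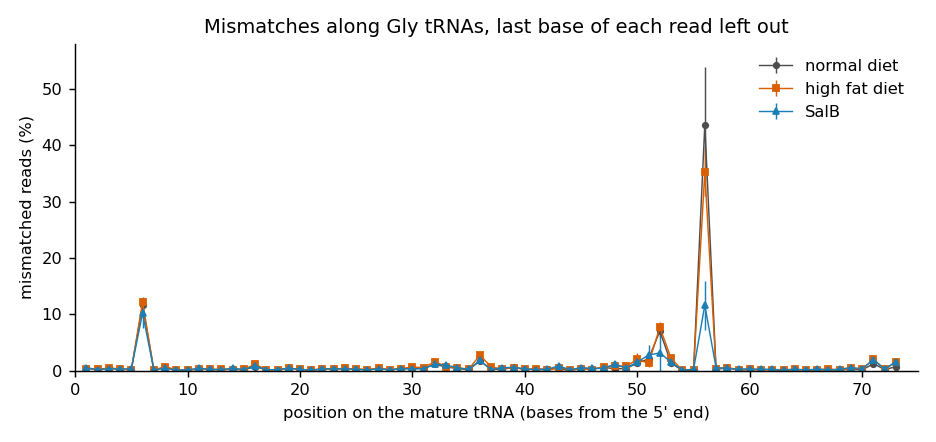
Mismatched reads (percent) at each position of the Gly tRNAs from the 5′ end, as group mean with SD (3 libraries a group), the last base of each read left out. Base 56 stands at 43.7% with normal diet, 35.2% with high fat diet and 11.6% with SalB, and base 6 near 10% to 12% in all 3.

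Along the rest of the tRNA, base 6 was the other position with a high mismatch share. It averaged 11.7% ± 1.42 (SD, n = 3) with normal diet, 12.2% ± 0.806 with high fat diet and 10.2% ± 2.65 with SalB, mostly as G6T. In the Gly-GCC-2-1 type, T at base 6 took 15.1%, 15.9% and 12.5% of 5′ reads of 20 bases or more with high fat diet and 13.3%, 6.34% and 10.5% with SalB, so SalB replicate 2 was lowest and the groups overlapped. Base 52 had 7.69% ± 0.943 with high fat diet and 3.17% ± 3.13 with SalB over 1012 and 435 covering reads. Mismatches at the last base of Gly reads took 21.6%, 16.9% and 19.6% with high fat diet and 31.7%, 21.1% and 24.5% with SalB. These overlapped, and the share over all tRNA reads, 25.97%, 13.96% and 21.3% with SalB, did not rise in SalB replicate 2. The part of last-base mismatches in the other results was not tested.

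The start of 3′ reads also moved. With high fat diet 85.9%, 89.3% and 89.0% of 3′ Gly reads started at base 53, in the T loop, and with SalB 78.6%, 79.6% and 80.6%. Starts at base 57, 1 base after the T-loop base, took 4.73%, 3.12% and 3.30% with high fat diet and 6.57%, 6.71% and 6.65% with SalB (exact permutation over 3 groups, adjusted p = 0.0413). Counting each distinct sequence once turned the difference to -1.42 points and ended the call (adjusted p = 0.556). In other nuclear tRNAs such starts took 35.7%, 33.1% and 31.9% with high fat diet and 25.8%, 29.5% and 27.0% with SalB, the opposite order; the difference between Gly and the others was not tested. In amount, the Gly fragments that start after the T-loop base were at 4006, 3277 and 3089 with high fat diet and 3923, 1821 and 3133 with SalB (log2 difference -0.28, limma-voom adjusted p = 0.502), while 6 of 23 such sums of other nuclear families fell and 0 rose.

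Internal fragments named here are shown with the anticodon bases they hold in capitals, 5′ to 3′, and all match Gly-GCC-2-1.
Bases 16 to 30: tggtagaattctcgc
Bases 16 to 31: tggtagaattctcgcc
Bases 19 to 38: tagaattctcgcctGCCacg
Bases 18 to 53: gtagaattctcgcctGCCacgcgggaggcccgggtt
Bases 8 to 23: tggttcagtggtagaa
Of 57 tested internal fragments 14 rose and 5 fell with SalB against high fat diet, 33.3% against the 34.2% called of all fragments. Among 20 that start at base 16, in the D loop, 10 rose and 1 fell, and the 3 that end at base 53 all fell. Of these 3, those from base 16 and from base 18 reached the filter level in 0 SalB libraries, so their falls were favoured by the filter. Among the risers, tggtagaattctcgcct and tggtagaattctcgcctGC from base 16 passed the filter only with the SalB libraries counted. The same held for tggttcagtggtagaattctcgcctGCA, tagaattctcgcctGCC and agtggtagaattctcgc, which start elsewhere. Rises of all these were favoured by the filter. The fragment of bases 16 to 30 went from 4167, 2169 and 2743 with high fat diet to 5219, 7672 and 13686 with SalB (log2 change 1.46, limma-voom adjusted p = 0.0139), a call lost with total counts (adjusted p = 0.29) and without high fat diet replicate 2 (adjusted p = 0.061). Its neighbour that ends 1 base later had 10046, 6897 and 5399 against 4691, 6114 and 11324, which overlapped (log2 difference -0.09, limma-voom adjusted p = 0.856). The fragment across the whole anticodon, bases 19 to 38, was level at 8289, 8025 and 9441 against 6079, 10977 and 6787 (log2 difference -0.15, limma-voom adjusted p = 0.695). The fragment of bases 18 to 53 had 1915, 2169 and 1444 with high fat diet, 647, 1066 and 709 with normal diet and 222, 142 and 225 with SalB. SalB libraries were the lowest and high fat diet libraries the highest (log2 change -3.20, limma-voom adjusted p = 0.000548). This fragment reached the filter level in 3 normal diet, 3 high fat diet and 0 SalB libraries. Its fall was therefore favoured by the filter, and its values are a description.

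High fat diet against normal diet gave no called Gly fragment among 154 in limma-voom, against 0% of all 733 fragments. At an unadjusted p under 0.05 there were 20, against 87 of all 733, and limma on log2 values also called 0. Of the 8 class sums 0 were called (0% of 226), with 1 at an unadjusted p under 0.05, the 5′ fragments of 37 to 40 bases, against 25 of all 226. The smallest p in the higher direction belonged to a 3′ fragment with C73T, tcgAttcccggccaatgcacta (log2 difference 2.46, limma-voom adjusted p = 0.175), then to bases 18 to 53, above (log2 difference 1.21, limma-voom adjusted p = 0.22), and bases 8 to 23. The latter had 647, 682 and 320 with normal diet and 1374, 954 and 1732 with high fat diet (log2 difference 1.41, limma-voom adjusted p = 0.25). In the lower direction the smallest p belonged to the 30-base tiRNA with C30T (log2 difference -1.70, limma-voom adjusted p = 0.22), then to the 40-base 5′ fragment (-1.44, limma-voom adjusted p = 0.259) and to the unsubstituted 30-base tiRNA. The last had 2505, 5970 and 8051 with normal diet and 1577, 824 and 2136 with high fat diet (log2 difference -1.80, limma-voom adjusted p = 0.344). In each of these the groups did not overlap, but they were named for their small p. In this comparison 24.1% of all 733 fragments, and 25 of the 154 Gly fragments, did not overlap. With no filter both 30-base fragments were called (adjusted p = 0.011 with C30T, 0.000137 without).

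SalB against normal diet shares the SalB libraries with the comparison above, so the 2 are not independent. In it 31 Gly fragments rose, the same 6 that reached the filter level only with SalB among them, and 15 fell of 154, where 39% of all fragments were called. Others among the risers passed the filter only with SalB libraries counted, and some of those that fell reached the filter level in no SalB library. With total counts the split was 15 higher and 40 lower, with no share over all fragments given beside it. Of the class sums 3 rose and 1 fell (38.1% of all sums called): 5′ of 14 to 24 bases by 1.62 (limma-voom adjusted p = 0.00411), 5′ of 25 to 29 bases by 2.32 (limma-voom adjusted p = 0.008), internal by 0.76 (limma-voom adjusted p = 0.0277) and 3′ with the T-loop base by -1.06 (limma-voom adjusted p = 0.025). The call for 14 to 24 bases was lost with total counts (adjusted p = 0.0602). The internal call was lost in 7 of 17 alternatives, with adjusted p up to 0.69, and the 3′ call without normal diet replicate 2 or 3 (adjusted p up to 0.0724). A pair of internal fragments with a changed last base, tggtagaattctcga (C30A) and tggtagaattctcgcctGCA (C35A), rose by 2.80 (limma-voom adjusted p = 0.000511) and 3.14 (limma-voom adjusted p = 0.00267). The second had 422, 42.6 and 181 with normal diet and 3026, 1039 and 1537 with SalB.

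Other tRNAs known for 5′ fragments in serum (Gly-TCC, Glu-CTC, Glu-TTC, Val-CAC, Val-AAC, Lys-CTT, Lys-TTT, His-GTG, Asp-GTC) were set beside Gly-GCC and Gly-CCC; a sum for Cys-GCA was not tested. For 14 to 24 bases, 0 of their 8 sums rose with SalB against high fat diet and 1 fell, Glu-TTC. For 25 to 29 bases 1 of 5 rose, Glu-CTC, and for 30 to 36 bases Glu-CTC rose and Asp-GTC fell of 9. Median log2 differences were 0.05, 0.89 and -0.07, against 0.02 over all 226 sums. Whether Gly differs from them was not tested. Across the 9 libraries the families whose summed level was most like that of Gly were Asn-GTT (Pearson r = 0.843), Arg-CCT (0.804), Pro-TGG (0.784), Val-AAC (0.773) and Arg-CCG (0.766). For 5′ reads alone they were Lys-TTT (0.635), Glu-TTC (0.590), Lys-CTT (0.503), Leu-AAG/Leu-TAG (0.460) and Ser-GCT (0.404). These 9 points share their library depth and scaling.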

How the data were processed

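Serum RNA was ligated to adapters, copied, amplified, selected for size and sequenced on a NextSeq 500 with a tRNA fragment kit, per the labels' protocols. The submitters' processing notes list FastQC, cutadapt, Bowtie, edgeR and mm10, with no versions or roles; how the aligner was set is not stated there. The authors deposited 1 alignment list per library, in which identical reads are collapsed and the read count stands in the read name. The files hold reads of 14 to 40 bases with at most 1 mismatch on mature or precursor tRNA references, so a read with 2 mismatches, one at the T-loop base, is not listed, and totals are not whole-library depths.

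Each read was counted once. A member aligns only to mature Gly-GCC or Gly-CCC references, whose bases were rebuilt from the reads; no genome was used. Libraries held 28191 to 156333 tRNA reads. Replicates within a group differed by more than sampling noise (chi-square per degree of freedom 3.47 to 9.75). Fragments, sums by kind and families were tested with limma-voom (limma 3.58.1, R 4.3.3) in 1 fit over 9 libraries, scaled by trimmed means of M values (factors 0.471 to 1.21), after a filter of 10 reads at the median depth (44415) in at least 3 libraries and 15 in all, adjusted by Benjamini and Hochberg at 0.05. The 9 shares and lengths were tested by exact two-sided permutation and adjusted together. Log2 odds per family (pseudocount 0.5, at least 20 covering reads in every library) were tested with limma. The fit was tested on simulated data. Named fragments are the 10 most abundant, up to 8 called without overlap per comparison and direction, and the 3 smallest p where none was called; a few were singled out further. Alternatives were other scalings, filters, fits and read lengths, a replicate block and leaving out each library. Members and lists were chosen with earlier results of these data known.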

Additional observations from a re-analysis of the deposited data

How the results depend on the processing

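Of 48 calls on named fragments, 26 were kept in every alternative that tested them, 22 were lost in 1 or more and 0 changed direction. With no filter all 5699 Gly sequences entered the test, 2909 of them seen as 1 read. Of these, 182 were called for SalB against high fat diet, 10 for high fat diet against normal diet and 188 for SalB against normal diet. A stricter filter left 28 in the last, where fewer fragments were tested. Shares called over all fragments or sums are not given for these alternatives or for those that follow, so the counts cannot be set against the main test. Leaving out 1 library gave 24 to 53 called fragments for SalB against high fat diet (24 without high fat diet replicate 1, 31 without SalB replicate 1 and 34 without high fat diet replicate 2) and 29 to 45 for SalB against normal diet (lowest without SalB replicate 1). The called class sums ranged from 2 to 5 in both comparisons, with 2 without high fat diet replicate 2 in the first and without normal diet replicate 2 or 3 in the second. The Gly family difference for high fat diet against normal diet, near 0, turned to -0.0138 with RLE size factors and -0.0499 with no filter, and ranged from -0.196 to 0.138 on leaving out 1 library. The Gly share difference of SalB minus high fat diet turned to 0.679 points over nuclear mature reads.

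Counting each distinct sequence once left all 7 called shares short of the threshold (adjusted p = 0.0536 for 6): differences of SalB minus high fat diet were -5.12 points for 3′ reads, 9.69 for 5′ reads of 14 to 24 bases, -19.95 for 30 to 36 bases, -1.83 bases in mean length, -5.54 points for T-loop mismatches and 3.76 for last-base mismatches, and -1.42, the reverse, for starts 1 base after the T-loop base. With reads of 16 bases or more the last-base difference was 6.38 (adjusted p = 0.0597). On leaving out 1 library, most of the 7 missed the threshold; the differences ranged from -23.97 to -17.03 for 3′ reads, 8.40 to 16.9 for 14 to 24 bases, -36.3 to -27.2 for 30 to 36 bases, -3.05 to -2.41 bases in length, 2.63 to 3.44 for starts after the T-loop base, -26.1 to -22.2 for T-loop mismatches and 3.42 to 8.71 for the last base. The causes of these changes were otherwise not tested. Whether replicate numbers pair the libraries is not stated, and correlations of deviations over 394 fragments cannot decide it. They ran from -0.12 to 0.28 for same numbers and from -0.26 to 0.26 for different numbers. With a replicate block 53, 0 and 43 Gly fragments were called for SalB against high fat diet, high fat diet against normal diet and SalB against normal diet. The shares over all fragments with that block are not given. Depth limits what can be said of rare members: 2909 of 5699 were seen as 1 read in all.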
